A study of Volvox carteri with 12 samples.

Results

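The 96 loci described here were abundant transcripts of the green alga Volvox carteri with nearly the same level in somatic cells and in gonidia. They were chosen from measured values: the mean over the somatic libraries and the mean over the gonidia libraries were both at least 100 FPKM, the deposited expression level corrected for transcript length and library size, and the somatic mean was between 0.8 and 1.25 times the gonidia mean. Of 9593 loci that could be matched across libraries, 398 reached 100 FPKM in both cell types and 96 of these (24.1%) met the ratio limits. Of the other 302, 218 lay below the lower limit and 84 above the upper limit. Equality of the cell types is therefore how the loci were picked and not a finding, and it is given without a test.

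Polyadenylated RNA was sequenced from the wild-type strain Eve10, at a stage labelled as following maturation and preceding embryogenesis. Groups were UV-B somatic cells and white-light somatic cells (3 libraries each), UV-B gonidia (2 usable libraries of 3) and white-light gonidia (3 libraries). The UV-B exposure lasted 1 h at an intensity of 0.056 mW/cm2. All cultures grew at 28 °C in 16 h of light, at 100 µmol photons per m2 per s, and 8 h of darkness. The labels name biological replicates A, B and C without saying what a letter shares, so p-values measure only the spread between these libraries. The UV-B gonidia library A was left out by the rule that chose the members. All of its 4073 reference rows were at 0, and its highest value in any row was 6.9 FPKM.

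Volvox carteri divides labour between many small, flagellated somatic cells that no longer divide and a few large gonidia that form the next generation. Transcripts that every cell needs, such as those for protein synthesis and energy metabolism, are commonly abundant in both kinds of cell, while motility and reproduction genes tend to separate them. UV-B is sensed in green algae by the photoreceptor UVR8, which changes the transcription of protective genes. An FPKM value is a share of a library, so an equal value does not mean an equal number of transcripts per cell, and gonidia are far larger than somatic cells. The IDs in the tables used here are not paired with gene names, so no locus is given a role and loci are described by ID or by scaffold position. In bulk RNA of this kind, fewer cells of a type and less RNA per cell cannot be told apart.

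The label of each library was checked against loci that differed by at least 5 times between the cell types, since named markers could not be looked up. At 383 loci with a somatic mean of at least 20 FPKM and 5 times the gonidia mean, the sum was 62507 to 84435 FPKM in somatic libraries and 4039 to 17389 FPKM in gonidia libraries. At 422 loci with the reverse pattern the sum was 5371 to 8016 FPKM in somatic libraries and 55558 to 84869 FPKM in gonidia libraries. Both lists were picked on these values. The gonidia libraries of replicate B held more of the somatic list, with medians of 24.4% (UV-B) and 25.1% (white light) relative to the somatic mean, against 2.33% to 5.62% in the other gonidia libraries. Of the 383 loci, 7 and 8 were at 0 in the B gonidia libraries under UV-B and in white light, and 15 to 20 in each of the other gonidia libraries. The part of this in any value below was not tested, and ratios are given with and without these libraries.

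The mean level of the 96 loci ranged from 102 to 8692 FPKM. The mean of both cell types lay between 100 and 200 FPKM for 35 loci, between 200 and 400 FPKM for 19, and between 400 and 1000 FPKM for 9. A further 27 loci lay between 1000 and 3000 FPKM and 6 above 3000 FPKM. No clear gap marked 1000 FPKM: the highest locus below it averaged 900 FPKM and the next averaged 1090 FPKM. The bound of 1000 FPKM was set after the values were seen, and it is used below to describe an upper set of 33 loci and a lower set of 63. Among the 302 other abundant loci the same classes held 49, 77, 52, 81 and 43 loci. A locus averaging close to 100 FPKM can reach that level in both cell types only with a ratio near 1, so the rule itself fills the lowest class, and nothing is read from the shares.

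**Figure D1:**
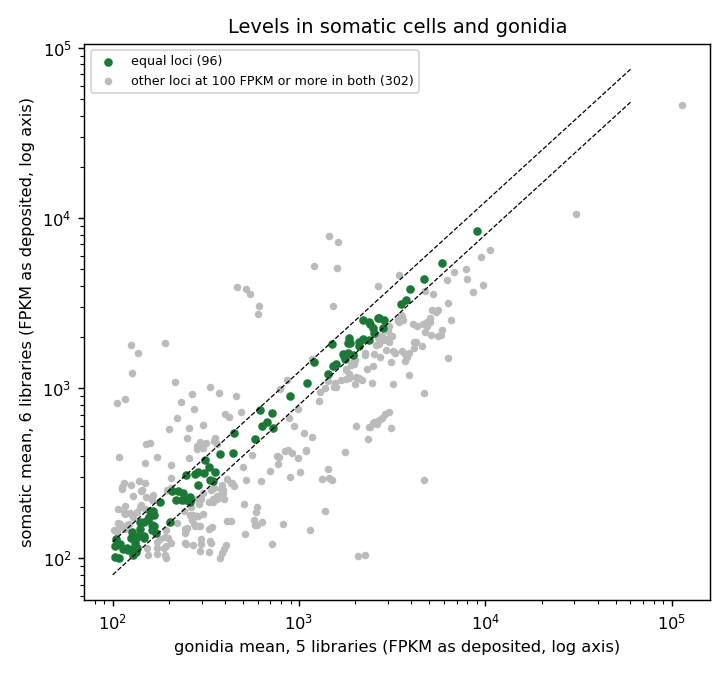
Somatic mean (vertical, 6 libraries) against gonidia mean (horizontal, 5 libraries) of the 398 loci at 100 FPKM or more in both cell types, in FPKM as deposited on log axes. The 96 equal loci lie between the dashed lines at ratios of 0.8 and 1.25. Of them, 35 averaged 100 to 200 FPKM and 27 averaged 1000 to 3000 FPKM.

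Most ratios of the upper set lay on the gonidia side of equality. The ratio of the somatic to the gonidia mean was below 1 at 61 of the 96 loci and above 1 at 35, with a median of 0.952. In the upper set 26 of 33 ratios were below 1 (median 0.902), and in the lower set 35 of 63 (median 0.992). Of the 124 other loci at 1000 FPKM or more, 110 had a ratio below 0.8. The lean towards gonidia was thus not particular to the upper set. Many of the 124 lay close to the lower limit without meeting it: 47 had a ratio between 0.6 and 0.8. Just inside this limit were Vocar20007117m.g.2.0, whose means were 581 FPKM (somatic cells) and 725 FPKM (gonidia), and Vocar20014132m.g.2.0, whose means were 2269 FPKM (somatic cells) and 2831 FPKM (gonidia). Just outside it were scaffold 5, 236432 to 242301, with means of 224 FPKM (somatic cells) and 282 FPKM (gonidia), a ratio of 0.793, and scaffold 25, 1260458 to 1261746, with means of 1561 FPKM (somatic cells) and 1971 FPKM (gonidia), a ratio of 0.792.

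At the upper limit, Vocar20013651m.g.2.0 (129 FPKM in somatic cells against 104 FPKM in gonidia) and Vocar20004994m.g.2.0 (309 FPKM somatic, 248 FPKM gonidia) were just inside. The loci scaffold 21, 1918481 to 1922120 (996 FPKM in somatic cells against 794 FPKM in gonidia), and scaffold 33, 98328 to 102766 (258 FPKM somatic, 205 FPKM gonidia), were just outside. At the level limit, Vocar20000793m.g.2.0 (102 FPKM in somatic cells against 103 FPKM in gonidia), scaffold 24, 602699 to 607053 (101 FPKM somatic, 108 FPKM gonidia), and Vocar20003872m.g.2.0 (119 FPKM somatic, 103 FPKM gonidia) were inside. Vocar20013599m.g.2.0 (98.7 FPKM in somatic cells against 102 FPKM in gonidia) and Vocar20001423m.g.2.0 (94.8 FPKM somatic, 102 FPKM gonidia) missed it through the somatic mean. Vocar20006503m.g.2.0 (111 FPKM in somatic cells against 99.1 FPKM in gonidia) and scaffold 6, 3098980 to 3100554 (108 FPKM somatic, 89.4 FPKM gonidia), missed it through the gonidia mean. No gap in the values separated the loci inside the limits from those outside.

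The most abundant of the 96 was Vocar20008483m.g.2.0 on scaffold 1, 3740810 to 3742363. In libraries A, B and C it had 9046, 6758 and 9891 FPKM in UV-B somatic cells and 8385, 7373 and 8952 FPKM in white-light somatic cells. It had 7443 and 10342 FPKM in UV-B gonidia B and C, and 9492, 7815 and 9820 FPKM in white-light gonidia A, B and C. All 4 groups overlapped, and in each of them library B was the lowest. This locus was listed under its reference ID in all 11 libraries with the same start and end.

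The loci ranked next were neighbours without an ID on scaffold 7, at 1869889 to 1871523 and at 1873328 to 1875349, with 1804 positions between them. The left one had 5772, 4683 and 6436 FPKM in UV-B somatic cells and 5231, 4675 and 6102 FPKM in white-light somatic cells, and 4725 and 7101 FPKM in UV-B gonidia against 5978, 5077 and 6439 FPKM in white-light gonidia. The right one had 4769, 3940 and 5123 FPKM in UV-B somatic cells and 4358, 3282 and 4884 FPKM in white-light somatic cells, and 3953 and 5552 FPKM in UV-B gonidia against 4647, 4065 and 5091 FPKM in white-light gonidia. Library B was again the lowest of its group in every case, and the right locus was below the left one in all 11 libraries.

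Below these 3, each of the next 3 loci had its lowest group mean in white-light somatic cells. Vocar20006784m.g.2.0 (scaffold 66, 269488 to 270536) averaged 3927 ± 280 FPKM in UV-B somatic cells and 3742 ± 281 FPKM in their white-light controls (SD, n = 3 each), with 3523 and 4826 FPKM in UV-B gonidia against 3793 ± 438 FPKM in white-light gonidia. Vocar20002665m.g.2.0 (scaffold 2, 3823863 to 3826556) averaged 3438 ± 109 FPKM in UV-B somatic cells and 3180 ± 244 FPKM in their white-light controls (SD, n = 3 each), with 3342 and 4244 FPKM in UV-B gonidia against 3703 ± 331 FPKM in white-light gonidia. Vocar20003174m.g.2.0 (scaffold 21, 2081055 to 2081640) averaged 3213 ± 144 FPKM in UV-B somatic cells and 3044 ± 223 FPKM in their white-light controls (SD, n = 3 each), with 3074 and 4354 FPKM in UV-B gonidia against 3402 ± 417 FPKM in white-light gonidia. In each of these loci the UV-B gonidia library C was the highest of all 11 libraries. Of Vocar20007466m.g.2.0, Vocar20002191m.g.2.0, Vocar20014132m.g.2.0 and Vocar20002401m.g.2.0, which complete the 8 highest loci with an ID, the group means lay between 2256 FPKM (Vocar20014132m.g.2.0, white-light somatic cells) and 2944 FPKM (Vocar20007466m.g.2.0, UV-B gonidia).

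**Figure D2:**
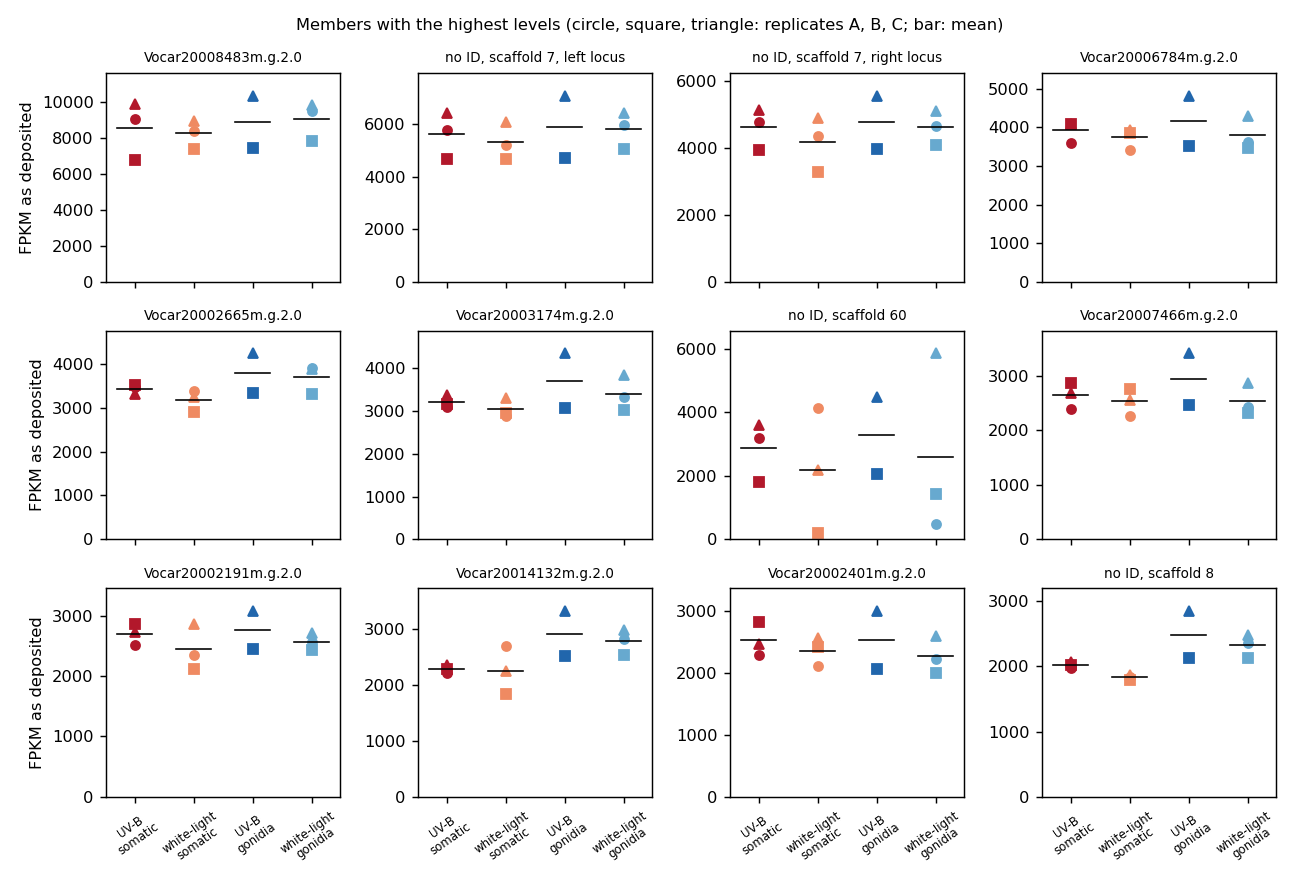
FPKM as deposited (vertical, from 0) of the 8 members with a reference ID and the 4 without one that had the highest levels, in each library of the 4 groups; circles, squares and triangles are replicates A, B and C and bars are group means. In gonidia the square is below the triangle in every panel, and the row of 106 positions on scaffold 60 stands apart with values between 188 and 5861.

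The shortest member was a row of 106 positions at the start of scaffold 60 (1 to 106), and its values did not hold together. It had 3184, 1805 and 3589 FPKM in UV-B somatic cells and 4147, 188 and 2183 FPKM in white-light somatic cells, and 2059 and 4482 FPKM in UV-B gonidia against 495, 1428 and 5861 FPKM in white-light gonidia. In white light the SD was 1980 FPKM around a mean of 2173 FPKM in somatic cells and 2866 FPKM around 2595 FPKM in gonidia, so its ratio of 0.878 is an average over unlike values. It was the only member shorter than 200 positions. Lengths of the 96 otherwise resembled those of the other abundant loci, with a median of 2192 positions against 2098, and both were shorter than the median of 4241 positions over all matched loci. The longest member was Vocar20011420m.g.2.0 (scaffold 5, 1273607 to 1282514), and in 9 libraries another row covered more than 10% of it.

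Rows of the 96 loci were described alike in most tables. The start and end were identical in all 11 libraries at 73 loci (76.0%), against 63.2% of the other abundant loci and 32.5% of all matched loci. Another gene row covered more than 10% of the locus in at least 1 library at 17 loci (17.7%), against 30.1% of the other abundant loci and 39.3% of all matched loci. A reference ID was listed at 68 of the 96, in all 11 libraries for 6 of them and in 1 library only for 11. The loci lay on 36 scaffolds, with 16 on scaffold 1. Apart from the neighbours on scaffold 7, only 2 pairs lay within 10000 positions of each other.

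Of these pairs, the rows Vocar20003878m.g.2.0 (scaffold 37, 921948 to 922778) and Vocar20003842m.g.2.0 (scaffold 37, 922786 to 925286) were separated by 7 positions and had almost the same level. The left row had 157, 121 and 128 FPKM in UV-B somatic cells and 160, 109 and 134 FPKM in white-light somatic cells, and 129 and 129 FPKM in UV-B gonidia against 149, 134 and 139 FPKM in white-light gonidia. The right row had 138, 99.2 and 122 FPKM in UV-B somatic cells and 145, 111 and 124 FPKM in white-light somatic cells, and 121 and 130 FPKM in UV-B gonidia against 134, 135 and 138 FPKM in white-light gonidia. Whether these are separate genes was not tested. The other pair, Vocar20007466m.g.2.0 and scaffold 14, 1798445 to 1802121, lay 6267 positions apart at unlike levels.

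The same libraries that chose the members gave their ratio in each light, which is a description only. With the UV-B libraries alone 86 of the 96 ratios stayed within the limits (range 0.75 to 1.32), and with the white-light libraries alone 82 (range 0.709 to 1.36). Without both gonidia libraries of replicate B, 71 stayed within them and the range widened to 0.696 to 1.69. With these B libraries as the only gonidia libraries, 74 did, with a range of 0.654 to 1.80. The means also averaged over lights and letters that differed: somatic and gonidia libraries did not overlap at 1 member higher in somatic cells and 2 lower, on FPKM as deposited, against 18.4% and 31.5% of the 7540 loci tested. On scaled FPKM these counts were 9 and 0, against 24.4% and 31.7% of the loci tested. That contrast chose the members, so nothing is read from these counts.

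The scaling of the libraries mattered for which loci counted as equal. After division by median-of-ratios factors, which ranged from 0.807 for the UV-B gonidia library C to 1.31 for the UV-B gonidia library B, 84 of the 96 ratios stayed within the limits and 12 lay above them, with a median of 1.03. The upper set then had a median ratio of 0.947 and the lower set 1.07. Summed over the 96 loci, the FPKM as deposited was 86916 to 104254 in somatic libraries and 91890 to 116182 in gonidia libraries, and these ranges overlapped. As a share of all matched loci the sum was 14.7% to 17.5% in somatic libraries and 10.5% to 12.7% in gonidia libraries, ranges that did not overlap.

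Replicates of the equal loci lay closer together by the median than those of other abundant loci. The coefficient of variation (CV), pooled over the 4 groups, had a median of 20.9% at the 96 loci and 31.3% at the other 302 on scaled FPKM, and 15.6% and 26.8% on FPKM as deposited. The authors' 95% limits were much narrower, with a median distance from the value of 2.20% to 3.04% in each library. On scaled FPKM the CV was under 10% at 19 of the 96 loci and over 30% at 13, against 11 and 160 of the other 302. The rule set limits on means of these same values, so the CV is not independent of the choice of members. No test was made of the CV, and nothing is read from its difference.

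The median CVs of the lower and upper sets moved in opposite ways with the scaling. The median CV of the lower set was 12.8% on scaled FPKM and 16.9% on FPKM as deposited, and that of the upper set was 26.8% on scaled FPKM and 12.2% as deposited. Not every locus followed the median of its set. In the lower set Vocar20007117m.g.2.0 had a CV of 25.8% on scaled FPKM and 9.99% as deposited. In the upper set scaffold 9, 2730105 to 2732396, had 9.39% on scaled FPKM and 20.5% as deposited. Many of the other abundant loci above 1000 FPKM also had a larger CV after scaling, so a larger CV was not particular to the members. The smallest scaled CVs belonged to Vocar20001328m.g.2.0 (3.58%), scaffold 16, 1740444 to 1743031 (4.11%), Vocar20011420m.g.2.0 (4.88%) and Vocar20008560m.g.2.0 (5.59%), all between 100 and 200 FPKM. Vocar20001328m.g.2.0 had 135, 164 and 139 FPKM in UV-B somatic cells and 123, 163 and 132 FPKM in white-light somatic cells, and 150 and 99.6 FPKM in UV-B gonidia against 127, 152 and 108 FPKM in white-light gonidia. Here library B was the highest of every group as deposited, and the deposited values gave a CV of 17.2%.

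**Figure D3:**
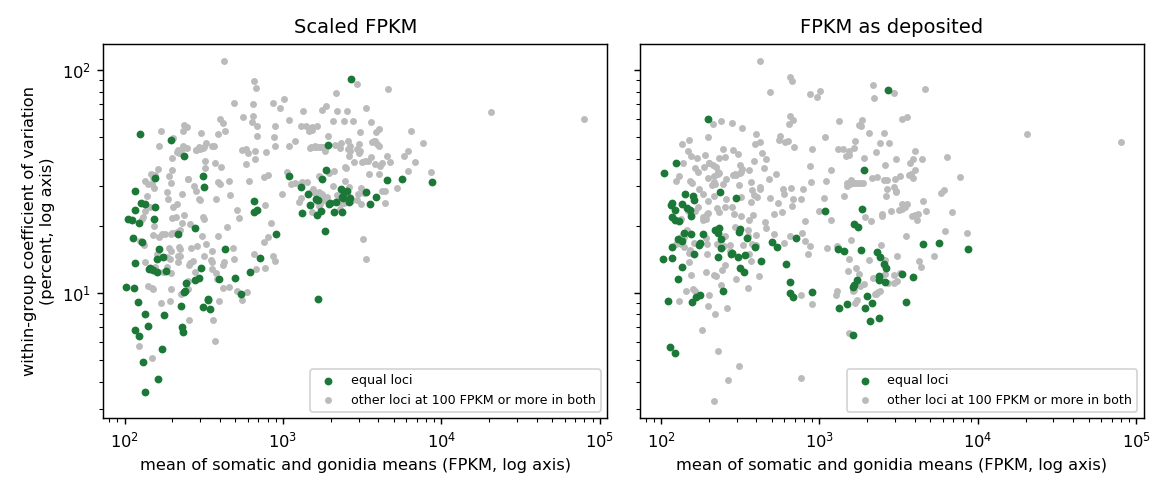
Pooled within-group coefficient of variation (vertical, percent, log axis) against mean level (horizontal, FPKM, log axis) on scaled FPKM (left) and FPKM as deposited (right), for the 96 equal loci and the 302 other abundant loci. Scaling lowers the median spread of the equal loci below 1000 FPKM (to 12.8%) and raises the median of those above (to 26.8%), though not every locus follows. Many of the other abundant loci above 1000 FPKM also have a larger spread after scaling.

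At members with the largest CVs a few libraries stood apart. Besides the row on scaffold 60 (scaled CV 90.6%) and a row of 297 positions on scaffold 1075, 1912 to 2208 (51.8%), they belonged to scaffold 20, 1541107 to 1542851 (48.5%), and Vocar20009445m.g.2.0 (45.9%). The scaffold 20 locus had 135, 214 and 132 FPKM in UV-B somatic cells and 124, 550 and 137 FPKM in white-light somatic cells, and 177 and 118 FPKM in UV-B gonidia against 136, 333 and 128 FPKM in white-light gonidia. It was high in the white-light libraries B of both cell types, and less so in the UV-B libraries B. Vocar20009445m.g.2.0 (scaffold 1, 7085759 to 7088504) had 1531, 1628 and 4383 FPKM in UV-B somatic cells and 1434, 1324 and 1504 FPKM in white-light somatic cells, and 1678 and 2235 FPKM in UV-B gonidia against 1795, 1645 and 1953 FPKM in white-light gonidia. Its UV-B somatic library C stood apart from all the others.

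Several of these high values had unusually wide confidence limits in the deposited tables. At Vocar20009445m.g.2.0 the limits lay 3.50% from the value in the UV-B somatic library C, against a median of 0.796% over all libraries. The same library was high at Vocar20012058m.g.2.0 (scaffold 48, 474935 to 477052), with 1522, 1809 and 3145 FPKM in UV-B somatic cells and 1404, 1582 and 1577 FPKM in white-light somatic cells, and its limits there were 3.37% against a median of 0.901%. At Vocar20003743m.g.2.0 (scaffold 37, 173931 to 176675) the libraries with wide limits were the UV-B somatic libraries A and B and the white-light somatic library C, with 1308, 1516 and 1199 FPKM. The remaining somatic libraries had 892 FPKM (UV-B, C), 797 FPKM (white light, A) and 720 FPKM (white light, B). At Vocar20003174m.g.2.0, described above, they were 4.19% in the UV-B gonidia library C and 4.23% in the white-light gonidia library A, against a median of 0.972%. Of the 1056 values of the 96 loci, 19 at 12 loci had limits more than 2 times those implied by the locus's other libraries. Limits that were wide in every library were not counted: at scaffold 7, 1869889 to 1871523, they lay 4.14% to 4.18% from the value. At its neighbour, 1873328 to 1875349, they lay 0.356% to 0.609% from it. Of the 19 values, 7 were at 130% or more of the mean of the other libraries of their group on scaled FPKM. These loci were chosen after their values were seen, and why the limits were wide was not tested.

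Levels of the 96 loci moved with the replicate letter within each cell type. Deviations from the group mean on scaled log2 values correlated between UV-B and white-light somatic libraries across the members, with r = 0.598 in letter A, 0.672 in B and 0.337 in C, against 0.351, 0.447 and 0.202 across all 7540 loci. Between UV-B and white-light gonidia they correlated at 0.875 for B and 0.777 for C across the members, against 0.705 and 0.624 across all loci. Loci are not independent replicates, and with only 2 UV-B gonidia libraries their deviations are mirror images. Library B was below every other library of its group in all 4 groups at 40 members (41.7%) on scaled FPKM, against 11.4% of all loci tested. On FPKM as deposited this held at 6 members (6.25%, against 5.08% of all loci), and library B was instead above every other library in all 4 groups at 39 members (40.6%, against 30.1% of all loci). The share with B above was 2.08% of the members and 10.3% of all loci on scaled FPKM, so the scaling moved all loci the same way. The division by larger factors in the B libraries (1.04 to 1.31) lowers B at every locus alike. Over all loci the letters were less alike between cell types than within them. White-light somatic and white-light gonidia libraries gave r = 0.074 in letter A, 0.144 in B and 0.0402 in C over all loci. Over the members they gave r = -0.517, 0.521 and 0.484. Under UV-B the correlations over the members were 0.551 for B and 0.383 for C, against 0.172 and 0.0932 over all loci. For letter C both member values were above the 0.337 within somatic cells and below the 0.777 within gonidia.

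In the upper set the direction in gonidia was the same on both scales. Replicate B was below replicate C at 33 of 33 loci in UV-B gonidia and at 33 of 33 in white-light gonidia on scaled FPKM, and at 32 and 31 on FPKM as deposited. The median level of B was 46.0% of C in UV-B gonidia and 58.4% in white-light gonidia on scaled FPKM, and 74.5% and 84.2% on FPKM as deposited. In somatic cells the direction turned with the scaling under UV-B, where the median of B over C was 84.7% on scaled FPKM and 104% as deposited; the white-light median was 76.3% scaled and 89.7% as deposited. In the lower set the medians in gonidia turned too, being 76.0% (UV-B) and 85.5% (white light) on scaled FPKM and 123% in both lights as deposited. The B gonidia libraries are those that held more of the somatic list, and the part of that in these values was not tested.

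**Figure D4:**
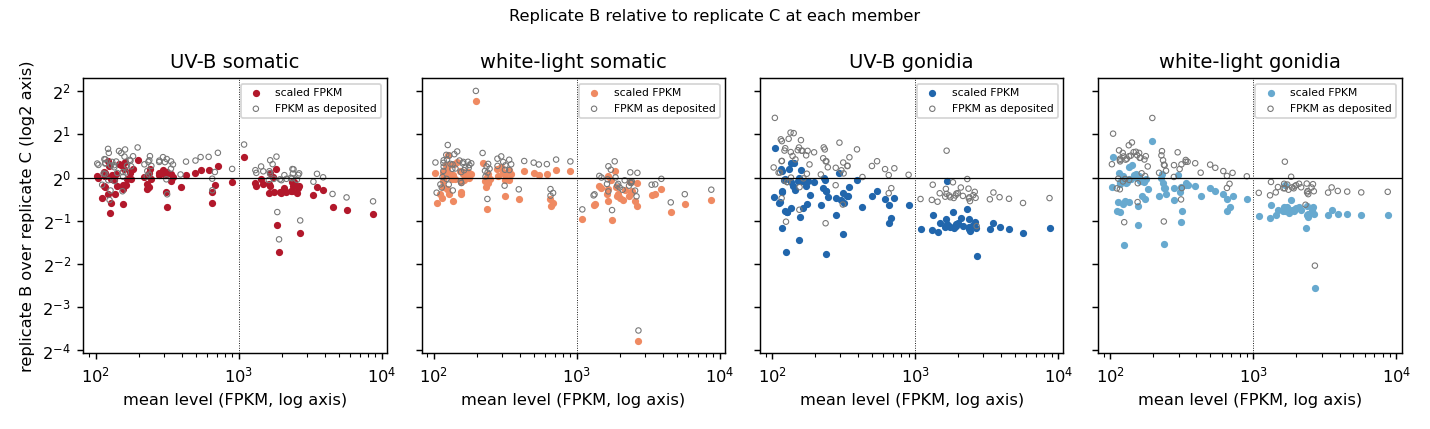
Level in replicate B over that in replicate C (vertical, log2 axis) against mean level (horizontal, FPKM, log axis) at the 96 members in each of the 4 groups; filled points are scaled FPKM and open points FPKM as deposited, and the dotted line marks 1000 FPKM. In both gonidia groups nearly all loci above 1000 FPKM lie below a ratio of 1 on either scale.

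UV-B against white light was not used to choose the members, and in somatic cells no member passed the test. Of the 7540 loci tested 6 were called (0.0796%; limma, adjusted p under 0.05), and 0 of the 96 members were among them, with 0 members at an unadjusted p under 0.05 against 4.60% of all loci. With a replicate block for letters within each cell type, which the shared deviations of somatic letters call for, limma called 0.119% of all loci and 0 members. In that fit 12 members had an unadjusted p under 0.05 (12.5%, against 18.4% of all loci), 4 of them higher under UV-B (against 6.31% of all loci) and 8 lower (against 12.1%). The median log2 change of the members was -0.0191 and that of all loci -0.0313, and 39 members lay above 0 and 57 below. The log2 change was within 0.2 of 0 at 88.5% of the members and at 54.2% of all loci. All loci include those of far lower level. The other abundant loci were not compared for UV-B, so nothing is read from this difference. In the fit without the block, the 95% interval of the change lay within 1 log2 unit both ways at 86 of the 96 members. It lay within 0.5 at 30. The members' median SE was 0.253 in that fit and 0.0784 with the block.

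The 5 members with the lowest p in somatic cells, in the fit without the block, had log2 changes between -0.41 and 0.46, all more than 0.2 from 0. The locus scaffold 24, 602699 to 607053, had 95.6, 147 and 120 FPKM in UV-B somatic cells and 65.5, 77.9 and 99.2 FPKM in white-light somatic cells. The UV-B library was above the white-light library of its letter in all 3 pairs, although UV-B library A was below white-light library C. The log2 change was 0.46 ± 0.25 (SE), and with the block it was 0.46 ± 0.12 (SE; limma, adjusted p = 0.166). The start and end of its row differed between libraries. In UV-B gonidia it had 166 and 63.7 FPKM, against 94.7, 143 and 70.7 FPKM in white-light gonidia, so library B was the higher one in both lights.

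The other 4 were lower under UV-B, on scaled FPKM, without passing the test. Vocar20000148m.g.2.0 (scaffold 18, 2017157 to 2019965) had 166, 102 and 127 FPKM in UV-B somatic cells and 189, 141 and 150 FPKM in white-light somatic cells, a log2 change of -0.41 ± 0.26 (SE). Each UV-B library was below the white-light library of its letter, and with the block the change was -0.41 ± 0.07 (SE; limma, adjusted p = 0.107), the lowest adjusted p of any member. The size of this change rested on single libraries: it was -0.14 without the UV-B somatic library B, -0.24 without the white-light somatic library A and -0.63 without the UV-B somatic library A. Vocar20011420m.g.2.0, the longest member, had 117, 144 and 112 FPKM in UV-B somatic cells and 124, 157 and 126 FPKM in white-light somatic cells, a log2 change of -0.24 ± 0.14 (SE). For scaffold 25, 750365 to 754269, the log2 change was -0.27 ± 0.18 and for Vocar20006043m.g.2.0 it was -0.22 ± 0.15 (SE; with the block, limma, adjusted p = 0.148). On FPKM as deposited the changes of these last 3 loci were smaller, at -0.12 for Vocar20011420m.g.2.0, -0.16 for scaffold 25 and -0.10 for Vocar20006043m.g.2.0.

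**Figure D5:**
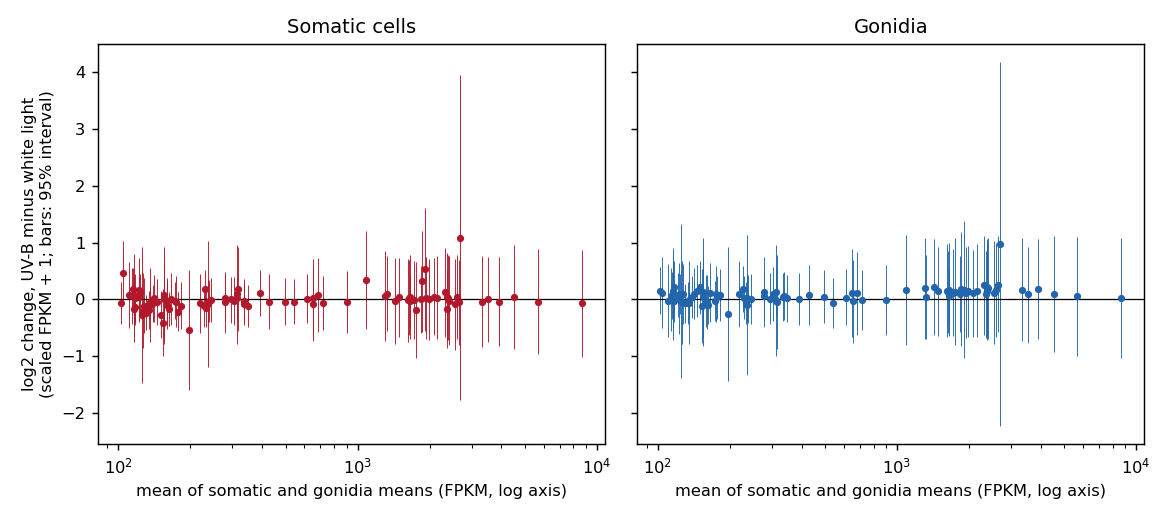
Log2 change under UV-B (vertical, scaled FPKM + 1, UV-B minus white light) of the 96 members in somatic cells (left) and gonidia (right) against mean level (horizontal, FPKM, log axis); bars are 95% intervals from limma. The intervals come from the fit without the replicate block. All of them include 0, and the widest belong to the row of 106 positions on scaffold 60.

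How often the libraries of the 2 lights separated at these loci in somatic cells, and in which direction, depended on the scaling. On scaled FPKM the UV-B somatic libraries lay above all white-light somatic libraries at 0 members (4.56% of all loci) and below them at 4 (4.17%, against 8.47% of all loci). On FPKM as deposited they lay above at 11 members (11.5%, against 6.82% of all loci) and below at 0 (4.91%). The 4 lower ones were Vocar20011420m.g.2.0, scaffold 16, 1740444 to 1743031, scaffold 14, 1798445 to 1802121, and scaffold 3, 3725839 to 3727135. Among the 11 higher ones was scaffold 8, 2060228 to 2063535, at 1979, 2026 and 2067 FPKM in UV-B somatic cells and 1838, 1785 and 1863 FPKM in white-light somatic cells. After scaling its log2 change was 0.03 ± 0.33 (SE). The median log2 change of the members was 0.0957 on FPKM as deposited, when that of all loci was 0.049. Within letters, on scaled FPKM, UV-B was above white light in all 3 pairs at 11 members (against 16.0% of all loci) and below it at 20 (20.8%, against 26.8%).

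In gonidia no member was called either. Of the 7540 loci 1 was called (0.0133%; limma, adjusted p under 0.05), with 0 members at an unadjusted p under 0.05, against 1.79% of all loci. With the block limma called 0.0265% of all loci and 0 members, and 1 member had an unadjusted p under 0.05 (against 4.96% of all loci), scaffold 49, 582833 to 588815, which was higher under UV-B (against 2.15%). The median log2 change of the members was 0.0872 and that of all loci 0.000703, and 73 of the 96 members lay above 0 (76.0%, against 50.1% of all loci). In the upper set all 33 lay above 0, with a median of 0.142. These medians depended on single libraries: the members' median was -0.298 when library C of UV-B gonidia was left out and 0.361 when library B was. Between libraries of the same letter the median UV-B change was -0.0262 for B and 0.173 for C. On FPKM as deposited the members' median was 0.0285 and that of all loci -0.0429. In both letter pairs UV-B was above white light at 25 members (26.0%, against 23.0% of all loci) and below it at 9 (9.38%, against 28.9%), on scaled FPKM.

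The 5 members with the lowest p in gonidia, in the fit without the block, had log2 changes between 0.13 and 0.22. The locus scaffold 49, 582833 to 588815, had 165 and 92.0 FPKM in UV-B gonidia B and C, against 136, 115 and 85.0 FPKM in white-light gonidia A, B and C, a log2 change of 0.22 ± 0.21 (SE). Its row differed in start and end between libraries. Vocar20005752m.g.2.0 (scaffold 11, 2264301 to 2265318) had 285 and 209 FPKM in UV-B gonidia against 203, 283 and 198 FPKM in white-light gonidia, a log2 change of 0.18 ± 0.18 (SE). Its 2 UV-B values were each close to the white-light value of the same letter. The other 3 were scaffold 25, 750365 to 754269 (0.21 ± 0.20), Vocar20000793m.g.2.0 (0.15 ± 0.18) and Vocar20014188m.g.2.0 (0.13 ± 0.18, SE). With 1 library left out the 5 changes ranged from 0.13 to 0.37 for scaffold 49, from 0.05 to 0.29 for Vocar20005752m.g.2.0, from 0.06 to 0.31 for scaffold 25, from -0.08 to 0.37 for Vocar20000793m.g.2.0 and from -0.04 to 0.30 for Vocar20014188m.g.2.0. Without both gonidia libraries of replicate B the change of scaffold 49 was 0.03, and the rest of the 5 lay between 0.24 and 0.33. Vocar20000793m.g.2.0 had 116 and 98.6 FPKM in UV-B gonidia against 94.3, 115 and 92.8 FPKM in white-light gonidia. On scaled FPKM the UV-B gonidia libraries lay above all white-light ones at 2 members (2.08%, against 4.66% of all loci) and below them at 2 (2.08%, against 4.73%). As deposited they lay above at 0 members (against 1.88% of all loci) and below at 3 (against 3.86%).

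The UV-B response was last compared between the cell types in an interaction test. At 3 of the 7540 loci it differed (0.0398%; limma, adjusted p under 0.05), and 0 members were among them, with 0 members at an unadjusted p under 0.05 against 2.14% of all loci. With the block limma again called 0.0398% of all loci and 0 members, and 4 members had an unadjusted p under 0.05 (4.17%, against 7.25% of all loci), all with a lower change in somatic cells (against 4.20% of all loci). The difference of somatic minus gonidia log2 changes had a median of -0.0948 over the members and -0.037 over all loci, and it was above 0 at 18 of the 96 (18.8%, against 45.0% of all loci). On FPKM as deposited both medians lay above 0, at 0.0785 over the members and 0.098 over all loci. When library C of UV-B gonidia was left out they were 0.245 over the members and -0.0742 over all loci. In the fit without the block, the 95% interval of the difference lay within 1 log2 unit both ways at 48 of the 96 members. It lay within 0.5 at 2. At the other 48 the interval reached beyond a 2-fold difference. The members' median SE was 0.38 in that fit and 0.124 with the block.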

How the data were processed

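The authors deposited a table of FPKM values with 95% confidence limits for each library, per the file headers. The submitters' processing notes name the aligner TopHat2 (version 2) together with Cufflinks 2.0.1 and Cuffdiff 2. The build is not given in the sources used here. Positions stand as deposited, and since a start of 0 occurs they may count from 0. The tables used here hold no fragment numbers; the confidence limits imply a median of 4328 to 8244 fragments behind a member's value in each library, under counting error only.

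Each library lists its own gene rows. Rows of 11 libraries were linked where the overlap reached 80% of the longer row, and sets with exactly 1 row per library were kept (9593 loci, Python 3.11.15, pandas 2.3.3). FPKM values were divided by median-of-ratios factors over loci above 1 FPKM in every library, and the 7540 loci reaching 1 FPKM in 3 or more libraries were tested as log2(FPKM + 1), which understates the changes of low loci. All 96 members passed this filter. Means of the 4 groups were fitted with limma 3.58.1 in R 4.3.3 (empirical Bayes, intensity trend, two-sided, Benjamini-Hochberg adjustment over all loci, threshold 0.05). The fit planned on 12 libraries was made on 11. Its somatic contrast was tried on simulated data without the block. The simulated libraries shared no letter effect, unlike the real ones, so nothing is read from that trial.

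The replicate letters were treated as pairing the somatic libraries, because the deviations of same-letter libraries correlated at 0.351, 0.447 and 0.202 over all loci; gonidia have only 2 pairs, and no label says what a letter shares. The block fit has a term for each cell type and letter.

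Loci were named by rule: the highest 8 with and 4 without an ID, the 5 lowest p in each cell type, the 4 smallest and 4 largest scaled CVs, the 2 on each side of each limit, and the longest and shortest. Others are said to be chosen after their values were seen, as were the neighbouring pairs and the loci that separate the lights. The members, lists and settings were chosen with earlier results of these data known. Planned gene and marker lists were not applied, because IDs could not be paired with names.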

Additional observations from a re-analysis of the deposited data

How the results depend on the processing

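In every limma setting run, 0 members were called for UV-B in somatic cells, in gonidia or for the difference between them. The number of members was 84 to 111 under other links, scales and library choices and 88 to 110 with 1 library left out; 70 of the 96 were also chosen without both B gonidia libraries. The choice by UV-B libraries alone (103 members) and the separation of libraries by light were added after the data were seen.

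Counts over all loci and medians of the members moved more. In gonidia the main count of 1 locus became 2 with a pseudocount of 0.1, 6 with no filter on low values, 0 with the libraries of that cell type alone and 26 without both B gonidia libraries. In somatic cells the main count of 6 became 2 with quantile normalization, 2 with the libraries of that cell type alone and 3 without both B gonidia libraries, and the difference count of 3 became 14 without them. The members' median change in somatic cells was 0.0957 on FPKM as deposited, 0.0529 with quantile normalization and 0.0565 with somatic libraries alone. Without both B gonidia libraries the median was 0.287 in gonidia and -0.289 for the difference, which was 0.0785 on FPKM as deposited, where the median of all loci was 0.098.

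With the replicate block, 9 loci were called in somatic cells, 2 in gonidia and 3 for the difference. No label says what a letter pairs, and the block changed no call of a member.

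With 1 library left out, 2 to 27 loci were called in somatic cells, 1 to 18 in gonidia and 3 to 15 for the difference; the 27 came without the UV-B somatic library B. The members' median was -0.0539 to 0.0146 in somatic cells, -0.298 to 0.361 in gonidia and -0.409 to 0.245 for the difference. Of the 5 members named for the lowest p in gonidia, 2 changed direction without the UV-B library C: Vocar20000793m.g.2.0 at -0.08 (up to 0.37 with another library left out) and Vocar20014188m.g.2.0 at -0.04 (up to 0.30). The cause was not tested. With 1 or 2 UV-B gonidia libraries, the spread of the other groups stands in for theirs.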
